A study of Mus musculus with 6 samples.

Results

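The late-numbered miRNAs described here are the rows of a mouse miRNA table whose name carries a number of 1000 or more right after miR, such as miR-6239, and whose deposited level reached 5 adjusted counts in at least 2 of 6 libraries. Of 1976 rows in the table, 1120 carry such a number, and 55 of these 1120 reached the level; they are the members. The libraries hold small RNA from extracellular vesicles, named exosomes in the labels, that primary hepatocytes released; the mice were wild type (C57BL/6J). In 3 control libraries the cells had palmitic acid at 0 µM, and in 3 palmitic acid libraries they had 600 µM. Palmitic acid, a saturated fatty acid, loads cultured hepatocytes with lipid, and the series title names hepatic steatosis and endothelial dysfunction. The labels give no age and no duration of treatment and do not state whether replicates stem from separate animals or cultures, so every p-value below measures no more than the spread of these libraries, which could be technical. The members were chosen by their deposited level, so that level is a description and gets no test.

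A miRNA is a short RNA cut by Drosha and Dicer from a hairpin, loaded into an Argonaute protein, and guided to target messages mainly by its seed, bases 2 to 8. miRNA numbers follow the order of entry into the miRBase registry, so a high number marks a late entry. The conserved, abundant families (let-7, miR-21, miR-122 of hepatocytes) have low numbers, and many late entries were first read from deep sequencing alone. Some late entries come from introns that form a hairpin after splicing, called mirtrons, and others lie inside small nucleolar RNAs (snoRNAs) or Cajal body RNAs (scaRNAs), which guide chemical modification of other RNAs and can be cut into miRNA-sized pieces.

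Mature sequences were taken from RefSeq for 52 of the 55 members (GRCm38.p6), written 5′ to 3′ with the seed, bases 2 to 8, in capitals. miR-5099, miR-6395 and miR-1839-3p are given by name only. The 5 sequences that follow belong to miR-6239, the most abundant member, to the other 3 members that were lower with palmitic acid, and to miR-5106, whose level varied most within a group.
miR-6239: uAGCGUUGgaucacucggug
miR-7075-3p: cAACCAUGucuucuuucccag
miR-5126: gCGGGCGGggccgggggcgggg
miR-3154: cAGAAGGGgagucgggagcgga
miR-5106: aGGUCUGUagcucaguuggcaga
These 5 share no seed. miR-6239 is annotated at chr14:117953768-117953787 on the minus strand (GRCm38.p6), antisense to Gpc6. miR-7075-3p lies at chr8:107096025-107096045 on the minus strand, in an intron of Terf2. miR-5126 (chr1:84695890-84695911, plus strand) runs antisense to Dner and consists only of G and C. miR-3154 (chr2:32318317-32318338, plus strand) runs antisense to Dnm1.

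The next 5 sequences belong to members inside snoRNA or scaRNA gene models, all called higher with palmitic acid but miR-1843a-5p, which is shown beside its near copy. The last 3 were higher and lie outside such models.
miR-1839-5p: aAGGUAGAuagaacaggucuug
miR-1291: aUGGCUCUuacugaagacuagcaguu
miR-1843a-5p: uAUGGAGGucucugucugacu
miR-1843b-5p: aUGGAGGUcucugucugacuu
miR-3068-5p: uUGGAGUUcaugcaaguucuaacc
miR-3066-5p: uUGGUUGCuguagauuaaguag
miR-12198-3p: gACUCAGGaggacugccgg
miR-6240: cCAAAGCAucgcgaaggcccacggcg
miR-1843a-5p and miR-1843b-5p are nearly the same sequence set 1 base apart, so their seeds differ although a read may fit either of them. miR-1291 (chr15:98519828-98519853, minus strand) begins at base 1 of Snora34, an H/ACA snoRNA in an intron of Kansl2. miR-1839-5p (chr7:81529919-81529940, plus strand) lies in a gene model that GENCODE types as scaRNA but names Mir1839. miR-3068-5p (chr12:87437724-87437747, minus strand) lies in a model typed as snoRNA but named Mir3068, within Alkbh1. miR-3066-5p (chr12:17355404-17355425, plus strand) lies in an intron of Nol10. miR-12198-3p (chr5:32092765-32092783, plus strand) and miR-6240 (chr5:114851973-114851998, plus strand) lie in no other annotated gene.

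The deposited values are log2(adjusted count + 1), an adjustment that brings libraries to a common size, and read numbers were recovered from them (99.8% of 1936 values checked came out whole within 0.0015 on the log2 scale). Recovered totals were 95195, 657184 and 252250 reads in controls 1, 2 and 3, and 799282, 761990 and 613573 in palmitic acid 1, 2 and 3. Reads of miR-122 and miR-122b arms took 69.2% to 87.7% of control reads and 11.7% to 15.3% of palmitic acid reads. Without them only 29333 to 80697 reads were left in a control library, against 534380 to 676936 with palmitic acid, and this touches every share and low level below. All 4 hepatocyte marker miRNAs had reads, 637300 to 825300 per 1000000 reads together in controls and 302800 to 462500 with palmitic acid. Singly they went both ways: miR-122-5p was lower (-3.56, limma adjusted p = 0.0141) and miR-192-5p higher (1.94, limma adjusted p = 0.0259). miR-194-5p (-0.23) and miR-148a-3p (0.83) did not pass. Marker miRNAs of other cells were summed per 1000000 reads other than miR-122, of which controls had few. Striated muscle markers came to 781 to 7671 in controls and 29.7 to 59.1 with palmitic acid (2 of 3 had reads, miR-133a-3p had none). Erythroid markers came to 322 to 20560 and 33.7 to 189 (3 of 3). Neuronal markers came to 335 to 12650 and 31.8 to 68.0 (3 of 3), and immune and Kupffer cell markers to 989 to 5250 and 232 to 451 (6 of 6). Stellate cell and fibroblast markers came to 1363 to 8046 and 589 to 758 (5 of 5), and endothelial markers to 7051 to 16410 and 4418 to 5615 (2 of 2). Epithelial or biliary markers went the other way, with 3135 to 5495 in controls and 6473 to 17170 with palmitic acid (8 of 8). In the fit on deposited values, 0 of 3 tested stellate cell and fibroblast markers and 0 of 1 endothelial markers passed. Lower were 1 of 1 striated muscle, 1 of 2 erythroid, 1 of 1 neuronal and 1 of 2 immune markers. Among epithelial or biliary markers 2 of 3 tested were higher. Of these, miR-96-5p (mean deposited value 0.36 in controls and 5.76 with palmitic acid) entered the fit through palmitic acid libraries alone, so it had to differ. The part of these markers in the results on the members was not tested. In vesicle RNA, fewer vesicles of a kind and less of a miRNA per vesicle cannot be told apart.

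miR-6239 was the most abundant member in all 6 libraries and was lower with palmitic acid. It had 6808, 5151 and 15558 reads in controls 1, 2 and 3 and 2902, 2377 and 2461 with palmitic acid, on deposited values of 14.37, 13.77 and 15.04 against 10.47, 9.70 and 10.51. The groups did not overlap on this scale: every control library lay more than 3 log2 units above every palmitic acid library. The difference was -4.16 on the log2 scale (SE 0.47, limma adjusted p = 1.52e-04, 95% interval -5.24 to -3.09), a 17.9-fold lower adjusted count. Leaving miR-122 aside, miR-6239 ranked 1, 2 and 1 among miRNAs in the control libraries and 22, 27 and 21 with palmitic acid. The difference stayed past the threshold under all 19 alternatives, between -6.10 and -3.19, the latter on library totals.

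As a share of all reads, miR-6239 held 7.15% (95% Clopper-Pearson interval 6.99 to 7.32), 0.784% (0.763 to 0.805) and 6.17% (6.07 to 6.26) of the control libraries. With palmitic acid it held 0.363% (0.35 to 0.377), 0.312% (0.299 to 0.325) and 0.401% (0.385 to 0.417). Control 2 was far below the other controls and yet above every palmitic acid library. The means were 4.70% ± 3.43 (SD, n = 3) and 0.359% ± 0.0448 (SD, n = 3), with p = 0.1 in a two-sided exact permutation test, the smallest that 3 against 3 allows (0.2 after adjustment over the 4 share tests run). Of reads other than miR-122, miR-6239 made up 23.2%, 6.38% and 29.6% in controls, against 0.429%, 0.354% and 0.461% with palmitic acid, again without overlap (exact permutation p = 0.1, adjusted 0.2). PCR copies of a molecule count as separate reads, so these intervals describe counting error alone.

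The 55 members together held 9.66%, 0.908% and 6.93% of control reads and 1.79%, 1.52% and 1.49% of palmitic acid reads. The means were 5.83% ± 4.48 (SD, n = 3) and 1.60% ± 0.168 (SD, n = 3), and the groups overlapped because control 2 lay below all palmitic acid libraries. miR-6239 alone supplied 74.0%, 86.3% and 89.0% of the members' reads in controls, and 20.2%, 20.5% and 27.0% with palmitic acid. Without miR-6239 the other 54 members held 2.51%, 0.124% and 0.762% of control reads and 1.43%, 1.21% and 1.09% of palmitic acid reads, so the groups overlapped. Of reads other than miR-122 these 54 held 8.16%, 1.01% and 3.66% against 1.69%, 1.37% and 1.25%, with overlap as well. In control 1, miR-5106 alone gave 1150 of the 2392 reads of these 54 members. Most late-numbered reads of the controls were thus miR-6239, as the plot of shares shows.

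**Figure D1:**
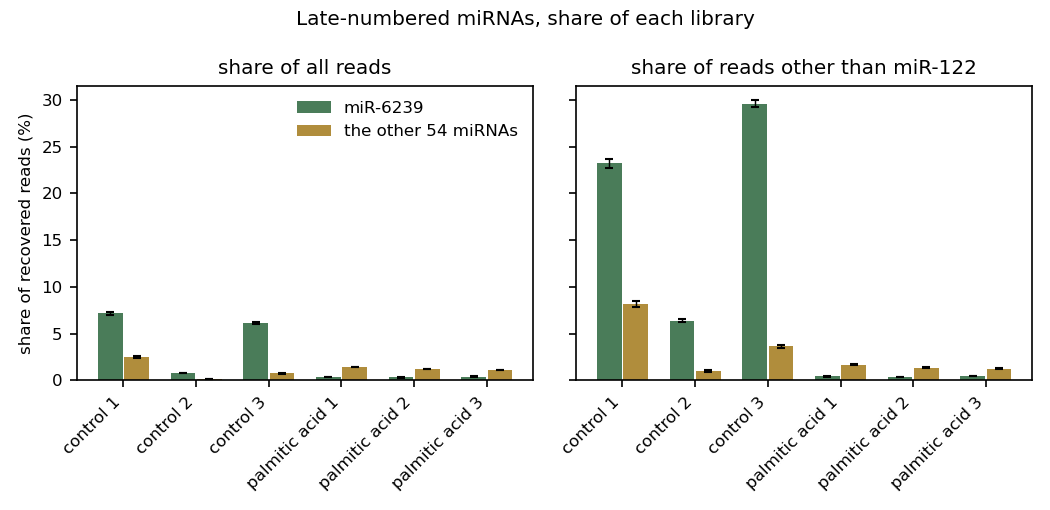
Share of recovered reads (%) held by miR-6239 (green) and by the other 54 late-numbered miRNAs (ochre) in each library, of all reads (left) and of reads other than miR-122 (right); bars start at 0 and error bars are 95% Clopper-Pearson intervals. miR-6239 stands at 6.38% to 29.6% of reads other than miR-122 in controls and at 0.354% to 0.461% with palmitic acid, while the other members overlap between the groups.

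Across the members the differences went both ways. The fit covered the 181 miRNAs that reached 10 adjusted counts in 3 or more libraries, and 30 of the 55 members were among them. Of these 30, 11 rose and 4 fell with palmitic acid and 15 did not pass (limma, adjusted p below 0.05 over all 181). Over all tested miRNAs 76 of 181 (42.0%) were higher and 26 (14.4%) lower. On deposited values, 12 of the 30 had all palmitic acid libraries above all controls, against 48.6% of all tested miRNAs, 6 had all controls above, against 19.3%, and 12 overlapped. The median difference was -0.32 over the 30 members (quartiles -1.74 and 2.91), 2.02 over the 151 tested miRNAs with lower numbers, and 1.94 over all tested miRNAs. Of the 30, 4 (miR-3066-5p, miR-3068-5p, miR-3965 and miR-12198-3p) met the filter in palmitic acid libraries alone and miR-7075-3p in control libraries alone, so these had to differ, and the counts and median are a description and not support for a direction of the members.

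Since the median tested miRNA was 1.94 higher on the log2 scale, the same differences were also read relative to that median. Then 6 of the 30 members were higher and 14 lower, against 48 (26.5%) and 59 (32.6%) of the 181. The 6 were miR-1291, miR-1839-5p, miR-3066-5p, miR-6240, miR-12198-3p and miR-3068-5p. The median difference of all tested miRNAs depends on how libraries are scaled. It was 2.91 when scaled to library totals and 1.02 when scaled to totals without miR-122. The members' calls became 14 higher and 2 lower of 30 in the former case, against 95 and 8 of all 181. In the latter they became 6 higher and 8 lower, against 57 and 44 of all 181. The 6 members just named, with miR-6239 and miR-7075-3p, kept their calls under each of these scalings, of which miR-3066-5p, miR-3068-5p, miR-12198-3p and miR-7075-3p are among those that had to differ.

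**Figure D2:**
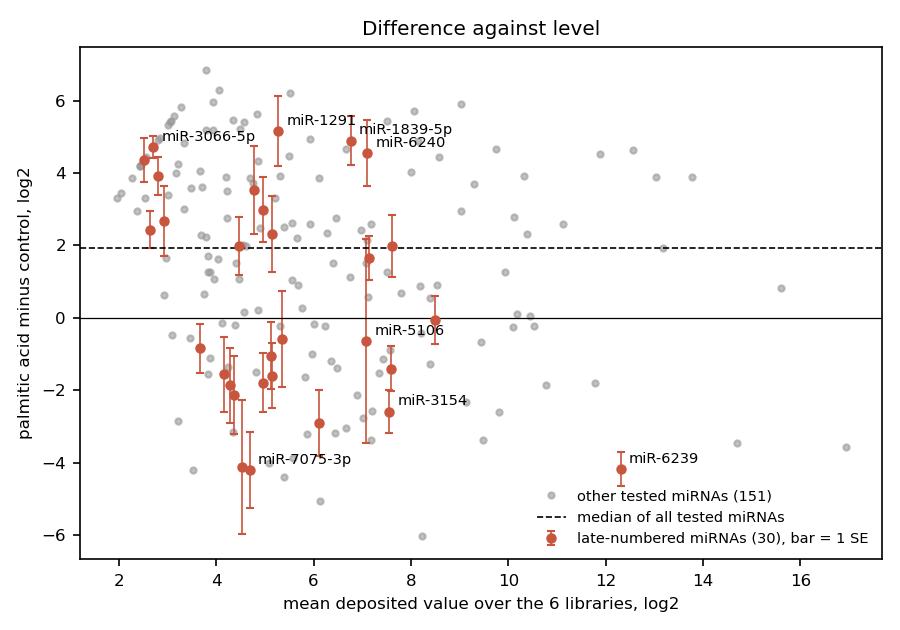
Difference between palmitic acid and control (log2, vertical) against the mean deposited value over the 6 libraries (log2, horizontal) for the 181 tested miRNAs, with late-numbered miRNAs in red (bars are 1 SE) and others in grey; the dashed line is the median of all tested miRNAs, 1.94. miR-6239 lies alone at high level and -4.16, while most late-numbered miRNAs lie below a mean value of 8.

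Besides miR-6239, 3 members fell. miR-7075-3p had 9, 100 and 78 control reads and 9, 24 and 6 reads with palmitic acid, on deposited values of 4.88 or more against 3.20 or less. The fitted difference was -4.20 (SE 1.05, adjusted p = 0.00917); since this member met the filter through the control libraries alone, its call is a description and no support for a fall. miR-3154 had 167, 90 and 348 control reads and 250, 149 and 114 reads with palmitic acid. Raw reads thus overlapped, but all control values (7.94 to 9.55) lay above all palmitic acid values (5.72 to 6.94), a scale on which 1 read stands for more in the control libraries. Its difference of -2.58 (SE 0.59, adjusted p = 0.00574) did not pass on library totals (-1.62, adjusted p = 0.206) or after a trend on base composition was removed in each library (-0.58, adjusted p = 0.330). miR-5126 had 44, 31 and 266 control reads and 88, 35 and 46 with palmitic acid, a difference of -2.90 (SE 0.92, adjusted p = 0.0260). It did not pass on library totals (-1.96, adjusted p = 0.206), with no filter (-2.90, adjusted p = 0.0835), or without control 3 (-2.10, adjusted p = 0.059), palmitic acid 2 (-2.42, adjusted p = 0.0901) or palmitic acid 3 (-2.98, adjusted p = 0.0727), and its sign turned after the trend on base composition was removed (2.23, adjusted p = 0.0195).

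**Figure D3:**
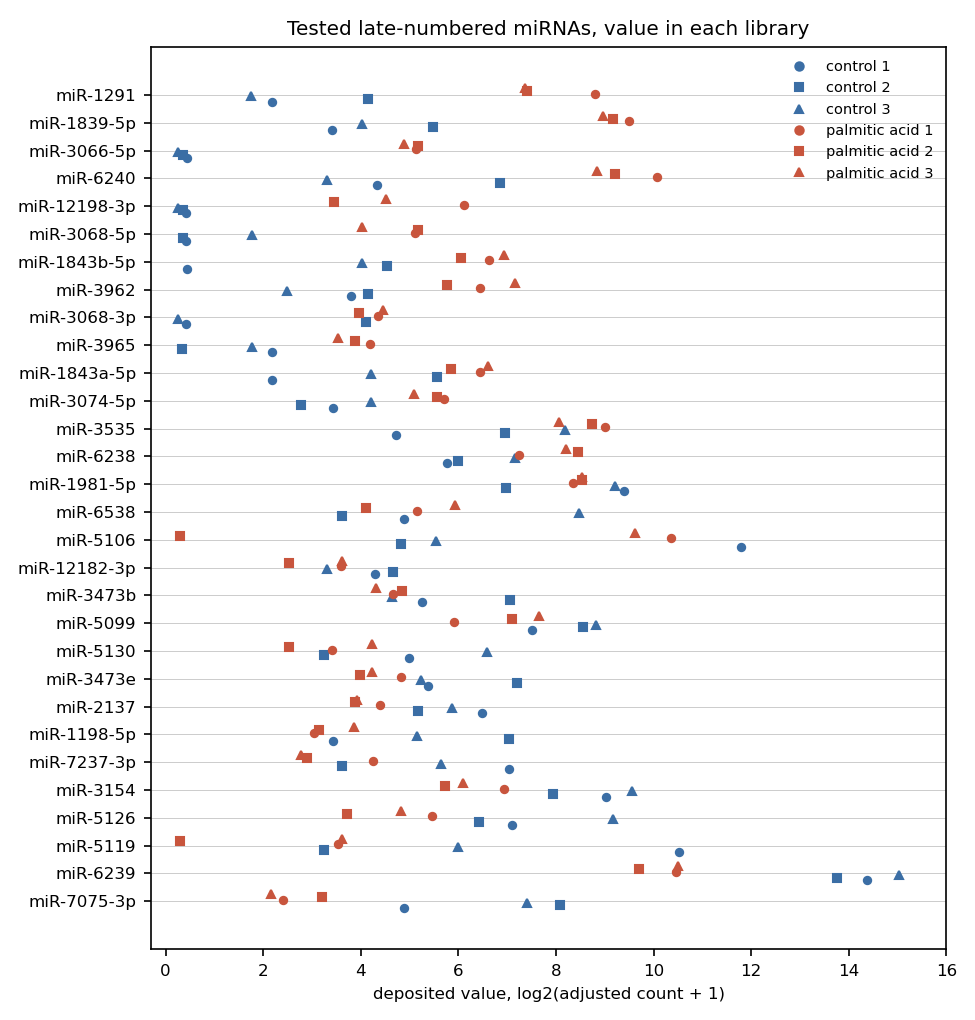
Deposited value, log2(adjusted count + 1), in each of the 6 libraries for the 30 tested late-numbered miRNAs, ordered by the difference between palmitic acid and control from the highest (top) to the lowest (bottom). Controls (blue) lie to the right for miR-6239 and miR-7075-3p at the bottom and to the left for miR-1291 and miR-1839-5p at the top; miR-5106 spreads across both groups.

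Of the 11 members that rose, 5 lie inside snoRNA or scaRNA gene models. There were 9 such members in all, 7 of them tested, so 5 of 7 rose, and none fell, where 42.0% of all tested miRNAs rose; 1 of the 5, miR-3068-5p, had to differ by the filter. All 7 are below 50% G and C, where 54 of 100 tested miRNAs, these 7 included, rose and 7 fell. The 7 also hold both arms of miR-3068 and the near copies miR-1843a-5p and miR-1843b-5p. Relative to the median difference 3 of the 7 were higher and none was lower. Their reads together came to 22, 101 and 164 in controls, against 3926, 3864 and 2005 with palmitic acid, or 750, 1252 and 3119 per 1000000 reads other than miR-122 against 5800, 5746 and 3752. Every palmitic acid library lay above every control on this measure, although control 3 came close to palmitic acid 3.

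miR-1839-5p had 3, 16 and 7 control reads and 1469, 1643 and 841 reads with palmitic acid. All palmitic acid libraries were high, and the difference was 4.89 (SE 0.67, adjusted p = 4.72e-04), past the threshold under all 19 alternatives. miR-1291 had 1, 6 and 1 control reads and 908, 481 and 276 with palmitic acid, the largest fitted rise among the 30 (5.16, SE 0.97, adjusted p = 0.00238), also kept under all 19. miR-3068-5p had 1 control read in all and 69, 100 and 26 with palmitic acid (3.92, SE 0.52, adjusted p = 4.04e-04), a description only, as it met the filter in palmitic acid libraries alone. By annotation these 3 lie within classes of RNA that guide the modification of other RNAs. The models of miR-1839-5p and miR-3068-5p carry the miRNA's own gene name, so they are not separately named guide RNA genes.

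miR-1843b-5p is annotated in Scarna3a within Cop1. Its exact sequence also occurs in CT030161.1, a gene that overlaps Scarna3b, so its reads cannot be given to either locus alone. miR-1843b-5p had 0, 8 and 7 control reads and 199, 188 and 204 with palmitic acid (3.53, SE 1.20, adjusted p = 0.0355). This call was lost without any 1 of the palmitic acid libraries (adjusted p 0.0842 to 0.121). miR-1843a-5p, its near copy in Scarna3b, had 1, 17 and 8 against 177, 163 and 163 reads, and the difference of 2.32 (SE 1.04) did not pass (adjusted p = 0.0882) although the groups did not overlap. miR-3068-3p had 0, 6 and 0 control reads and 40, 42 and 35 with palmitic acid (2.67, SE 0.96, adjusted p = 0.0435), and leaving out any library but control 2 ended the call, which was kept under 6 of the 19 alternatives. miR-3535 begins at base 1 of a snoRNA model in Ncl, the nucleolin gene. It had 8, 45 and 134 control reads and 1044, 1214 and 452 with palmitic acid, and control 3 overlapped palmitic acid 3 on deposited values (8.18 and 8.07). Its difference of 1.99 (SE 0.85, adjusted p = 0.0780) did not pass, but did without control 3 (2.77, adjusted p = 0.0167). The other members of this kind, miR-5121 in Snord33 of Rpl13a and miR-1843a-3p, had too few reads to be tested (2 control and 55 palmitic acid reads, and 16 and 6 reads).

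**Figure D4:**
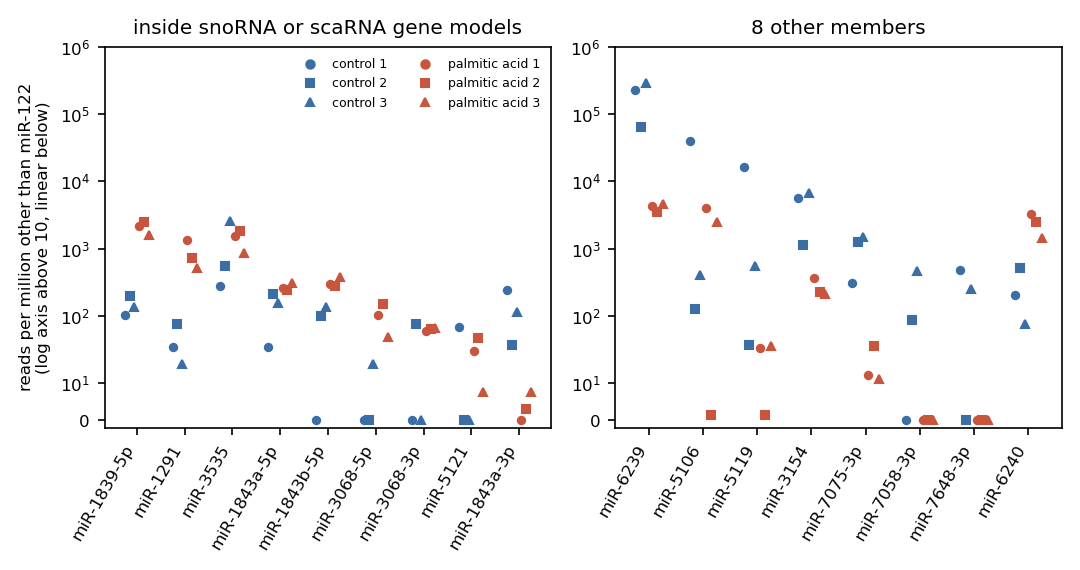
Reads per 1000000 reads other than miR-122 in each library (log axis above 10, linear below) for the 9 late-numbered miRNAs inside snoRNA or scaRNA gene models (left) and for 8 other members (right). On the left palmitic acid libraries (red) lie above controls (blue) for miR-1839-5p and miR-1291 and overlap them for miR-3535, while on the right controls lie above for miR-6239, miR-3154 and miR-7075-3p and below for miR-6240.

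Of the members that rose outside snoRNA models, miR-3066-5p had the smallest standard error (0.30). No read was found in any control, which allows up to 3 reads over the control group, and 70, 101 and 48 reads were found with palmitic acid. Pooled over the libraries of each group, the level was at least 33.7-fold higher with palmitic acid per 1000000 total reads. It was at least 6.30-fold higher per 1000000 reads other than miR-122. A bound of this kind allows for counting error in the group without reads alone and leaves out the spread between libraries. miR-12198-3p likewise had no control read and 139, 29 and 37 reads with palmitic acid, at least 31.6-fold higher per 1000000 total reads and at least 5.90-fold per 1000000 reads other than miR-122. Both were called higher in the fit (adjusted p = 1.3e-05 and 4.79e-04), where their fitted differences depend on the value given to absent reads. Both entered the fit through the palmitic acid libraries alone, so these calls are a description and no support for a rise.

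miR-6240 had 6, 42 and 4 control reads and 2200, 1693 and 769 reads with palmitic acid. It was the second member after miR-6239 in palmitic acid 2, and its difference was 4.55 (SE 0.91, adjusted p = 0.00319), kept under all 19 alternatives. miR-6238 had 17, 23 and 66 control reads and 307, 1004 and 497 with palmitic acid, a difference of 1.66 (SE 0.61, adjusted p = 0.0463). This is below the median shift of all tested miRNAs, relative to which it turned to -0.28, and the call was lost without controls 1 or 2 or palmitic acid 2 or 3 (adjusted p 0.0879 to 0.191). It was kept under 8 of the 19 alternatives.

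A pair of members that rose lie close in sequence to abundant miRNAs. miR-3962 lies 1 edit from let-7g-5p, and miR-3965 and miR-3967 lie 2 edits from miR-21a-5p; these are set out here because a read of the abundant miRNA could be counted as the late one.
let-7g-5p: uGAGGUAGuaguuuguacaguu
miR-3962: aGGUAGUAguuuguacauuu
miR-21a-5p: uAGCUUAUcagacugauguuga
miR-3965: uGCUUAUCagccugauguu
The edit count allows the longer sequence to extend past the shorter at either end, and the seeds differ because the late-numbered sequences start further in. miR-3962 had 4, 6 and 2 control reads and 177, 154 and 241 with palmitic acid (2.99, SE 0.89, adjusted p = 0.0199), a call kept under 11 of the 19 alternatives and lost without any 1 of the palmitic acid libraries (adjusted p 0.0582 to 0.0953). let-7g-5p had 219, 539 and 344 against 11595, 10709 and 13266 reads, so there were 10.9 miR-3962 reads per 1000 let-7g-5p reads in pooled controls and 16.1 with palmitic acid. By library these were 18.3, 11.1 and 5.81 in controls against 15.3, 14.4 and 18.2, so the groups overlapped. miR-3965 had 1, 0 and 1 control reads and 35, 39 and 18 with palmitic acid (2.44, SE 0.50, adjusted p = 0.00352), or 0.464 and 0.255 pooled reads per 1000 of miR-21a-5p. By library this ratio also overlapped between the groups (1.0, 0 and 0.704 against 0.238, 0.29 and 0.227). miR-3965 met the filter in palmitic acid libraries alone, and did not pass on totals without miR-122 (1.89, adjusted p = 0.125), with no filter (2.44, adjusted p = 0.0566) or relative to the median difference (0.50, adjusted p = 0.428). As a share of reads other than miR-122 its groups overlapped. Values of miR-3962, miR-3965 and miR-3967 are therefore uncertain as to which miRNA they count.

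Among the 15 tested members that did not pass, miR-5106 had the widest spread. It had 1150, 10 and 21 reads in controls, against 2687, 1 and 1333 with palmitic acid, which is 3.92%, 0.0124% and 0.0399% of control reads other than miR-122 and 0.397%, 1.49e-04% and 0.249% of those with palmitic acid. It was thus high in control 1 and in palmitic acid 1 and 3, and nearly absent from palmitic acid 2. The difference of -0.63 (SE 2.82, 95% interval -7.13 to 5.87, adjusted p = 0.857) turned to 2.60 without palmitic acid 2 and to 1.58 without control 1, and neither passed (adjusted p = 0.301 and 0.663). miR-5119 was likewise highest in control 1 and lowest in palmitic acid 2, with 476, 3 and 29 reads against 22, 1 and 19 (-4.11, SE 1.85, adjusted p = 0.0882). Without control 2 its difference passed (-5.78, adjusted p = 0.0249). The next largest standard error among the tested members was 1.32, for miR-6538.

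miR-1981-5p was the second most abundant member on deposited values (mean 8.50) and did not pass. Its hairpin fills an intron of Marc2, the arrangement of a mirtron. It had 216, 46 and 277 control reads and 667, 1057 and 625 with palmitic acid, and the palmitic acid values (8.35 to 8.54) fell inside the range of the controls (6.98 to 9.39). The difference was -0.06 (SE 0.65, 95% interval -1.56 to 1.45, adjusted p = 0.935), and its sign changed with the scaling and with the library left out. Relative to the median difference it was called lower (-1.996, adjusted p = 0.0299). miR-5099 had deposited values of 7.50, 8.55 and 8.83 in controls against 5.92, 7.11 and 7.66 with palmitic acid, which overlapped. Its difference of -1.40 (SE 0.62) did not pass (adjusted p = 0.0841), but did when totals without miR-122 were used (-2.54, adjusted p = 0.0121) and without control 1 (-1.79, adjusted p = 0.0413). Over the alternatives tried its limma adjusted p ran from 0.00242 to 0.699.

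Members near repeats or with copies were also in the set that did not pass. miR-3473b and miR-3473e share the seed GGCUGGA and lie within 2 edits of a misc_RNA gene model, and the miR-3473b sequence occurs in transcripts of 343 genes. They had 12, 49 and 11 against 50, 80 and 32 reads, and 13, 55 and 17 against 56, 43 and 30 reads. Their differences were -1.04 (SE 0.92, adjusted p = 0.34) and -1.60 (SE 0.89, adjusted p = 0.155). The groups overlapped for miR-3473b and did not for miR-3473e. Reads of miR-3473b thus cannot be given to 1 locus.

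The remaining members that did not pass had differences between -2.13 and 1.99. miR-7237-3p (-2.13), miR-1198-5p (-1.85), miR-2137 (-1.78), miR-5130 (-1.56), miR-12182-3p (-0.84) and miR-6538 (-0.59) had values below 0 (adjusted p 0.0929 to 0.720). Of these only miR-2137 had all controls above all palmitic acid libraries on deposited values (5.18 to 6.48 against 3.89 to 4.39). miR-6538, 94.7% G and C, had 165 of its 178 control reads in control 3. miR-3074-5p had 3, 2 and 8 control reads and 105, 133 and 56 with palmitic acid (1.99, SE 0.81, adjusted p = 0.0664), without overlap between the groups on deposited values. Its hairpins lie opposite those of miR-24 on chromosomes 8 and 13, and whether the counting used strand is not given in the sources used here, so its reads may not be separate from those of miR-24.

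Where members had both arms of a hairpin among them, the arm balance was set out for 4 arm pairs. A hairpin gives a 5′ and a 3′ arm, of which usually the one retained by Argonaute is abundant. For miR-1843a the 5′ arm made up 1 of 8, 17 of 20 and 8 of 14 reads in controls (12.5%, 85.0% and 57.1%) and 177 of 177, 163 of 165 and 163 of 167 with palmitic acid (100%, 98.8% and 97.6%). Every palmitic acid library was above every control, but the control shares rest on few reads (Clopper-Pearson interval 0.316% to 52.6% for control 1). The exact permutation p was 0.1 (0.3 adjusted over 3 arm pairs). For miR-1839 the 5′ arm made up 87.5% to 100% of reads in controls and 97.0% to 98.6% with palmitic acid (exact permutation p = 1.0). For miR-3074 its share was 100%, 40.0% and 40.0% against 84.0%, 85.8% and 90.3% (exact permutation p = 0.4, adjusted 0.6). The miR-3074-5p sequence lies in 2 hairpins and miR-3074-2-3p in 1 of them, so this share is not the balance of a single hairpin. For miR-3068 palmitic acid libraries gave 63.3%, 70.4% and 42.6%, and controls had 7 reads in all, too few to compare. miR-6239 has no arm suffix, and miR-7075-3p, miR-3066-5p and miR-12182-3p had no read of the opposite arm in any library.

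A level in libraries of both groups was reached by 37 members, in palmitic acid libraries alone by 11 and in control libraries alone by 7, and 16 reached it in all 6. Members that reached it in 1 group had to differ by that choice. Without any control read were miR-3066-5p, miR-12198-3p, miR-1968-5p and miR-3058-3p. miR-1968-5p had 25, 18 and 13 palmitic acid reads and miR-3058-3p 9, 15 and 13, which is at least 8.62-fold and 5.70-fold higher per 1000000 total reads. The bounds per 1000000 reads other than miR-122 were 1.61-fold and 1.07-fold, so at this control depth little difference could be shown. All these bounds pool the libraries of a group and leave out the spread between them. Without any palmitic acid read were miR-7058-3p (0, 7 and 24 control reads), whose hairpin fills an intron of Lat, and miR-7648-3p (14, 0 and 13). On the same pooled counts they were at least 22.4-fold and 19.5-fold lower with palmitic acid per 1000000 total reads, and each was also absent from 1 control library. The members just inside the level were miR-3058-3p and miR-6395 (second highest adjusted count 5.36 each) and miR-1947-5p (5.40), and just outside were miR-7216-5p (4.83), miR-6539 (4.81) and miR-12184-5p (4.24).

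The number of members with a read differed with depth. At full depth 36, 38 and 44 of the 55 were found in controls 1, 2 and 3 and 49, 52 and 52 with palmitic acid. Thinned to 95195 reads each, 36.0, 25.6 and 36.7 were found in controls, against 44.2, 43.3 and 45.02 with palmitic acid. Thinned instead to 29333 reads other than miR-122, the numbers were 36.0, 33.4 and 39.6 in controls, against 36.0, 33.7 and 35.1 with palmitic acid, and the groups overlapped. Over the 3 controls, 23 members had at most 10 reads, so the presence of a low member in a control library is known only within a few reads.

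The members also shared features that their choice did not use. Of the 52 with a sequence, 13 (25%) matched a snoRNA, scaRNA or misc_RNA gene model of GENCODE vM21 within 2 edits, against 1.62% of 927 other late-numbered rows and 1.13% of 177 lower-numbered rows that reach the same level. Of these 13, 9 lie in snoRNA or scaRNA models and 4 (miR-1195, miR-3470b, miR-3473b and miR-3473e) near misc_RNA models. The models matched by miR-1839-5p and by both arms of miR-3068 are named Mir1839 and Mir3068. For miR-3535 the hairpin and the matched snoRNA model share the name Gm24148. Such matches are to the miRNA's own gene under another type and not to a separately named gene. Of ribosomal RNA only the gene models of GENCODE vM21 were compared, and no nuclear transfer RNA sequences were used. Likeness of miR-6239 or any member to other ribosomal RNA or to nuclear transfer RNA was thus not tested. A hairpin that fills an intron was found for 2 of 52 (3.85%), close to the 3.02% of the other late-numbered rows. With rows sorted into 8 classes by number, the level was reached by 44.8% of rows in the lowest class, 13.0% in the lowest late-numbered class, 2.48% in the class of miR-6239 and 1.81% in the highest. miR-6239 thus belongs to a class of which few rows reached the level.

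Base composition differed among the members as well. The median share of G and C was 54.5% over the members, 55.0% over the other late-numbered rows and 45.5% over lower-numbered rows that reach the level. Of the 13 tested members below 50% G and C, 9 rose and 1 (miR-7075-3p) fell, with a median difference of 2.67, where 54 of all 100 tested miRNAs of that class rose and 7 fell. Of the 6 from 50% to below 60%, none rose and 1 (miR-6239) fell, with a median of -1.24, where 12 of 42 rose and 11 fell. Of the 10 at 60% or more, 2 (miR-6240 and miR-12198-3p) rose and 2 (miR-3154 and miR-5126) fell, with a median of -1.58, where 4 of 19 rose and 3 fell. Over all tested miRNAs with a sequence the medians in the same order were 2.62, 0.68 and -1.04. These include the members, 10 of the 19 at 60% or more, so they are no separate comparison. The other miRNAs at 60% or more ranged from -6.01 (miR-423-3p) to 3.32 (miR-331-3p). The part of base composition in the members' differences was not tested beyond the removal of a trend in each library. After that removal the members' calls were 11 higher and 2 lower of 30, against 80 higher and 26 lower of all 181. Only the 161 tested miRNAs with a sequence could be corrected, and the others, miR-5099 among the members, kept their values. miR-6239 was still lower (-3.46, adjusted p = 2.07e-04). The 11 were not the 11 named above: miR-3962 (1.25, adjusted p = 0.236), miR-6238 (0.54, adjusted p = 0.484) and miR-3068-3p (2.45, adjusted p = 0.0536) no longer passed. miR-6538 (4.02, adjusted p = 0.00712), miR-5126 (2.23, adjusted p = 0.0195) and miR-3074-5p (2.65, adjusted p = 0.0202) passed as higher in their place.

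**Figure D5:**
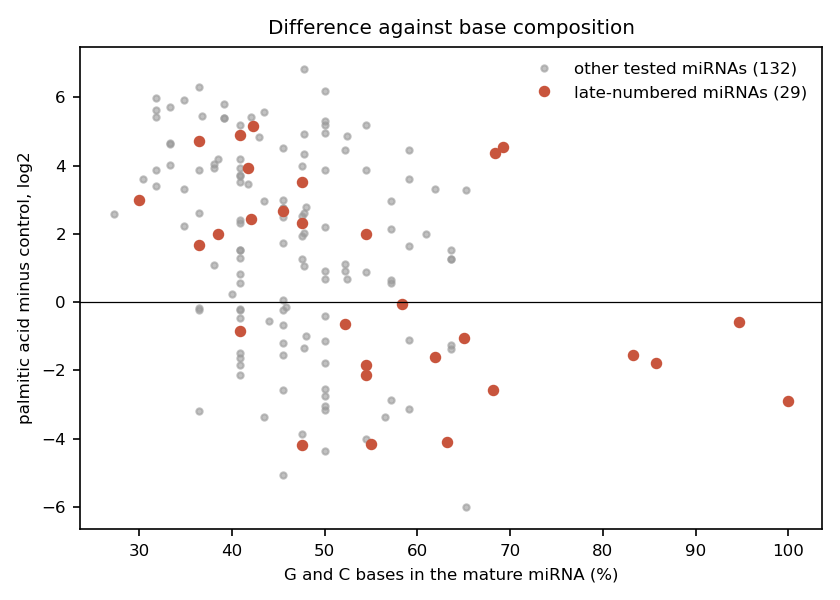
Difference between palmitic acid and control (log2, vertical) against the share of G and C bases in the mature miRNA (%, horizontal) for tested miRNAs with a sequence, 29 late-numbered (red) and 132 others (grey). Late-numbered miRNAs below 50% lie mostly above 0 and those above 80% all lie below 0.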

How the data were processed

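Small RNA libraries of hepatocyte vesicles, 3 control and 3 with palmitic acid, were made from Trizol RNA with a NEBNext small RNA kit (per the labels' protocols). Bowtie2, bedtools, GRCm38 and mm10 appear in the submitters' processing notes, and their roles, the miRNA annotation and how reads were counted, strand included, are not given in the sources used. The 1 deposited table holds log2 values for 1976 miRNAs, which from the values are log2(adjusted count + 1) after quantiles of a negative binomial distribution were matched at 1 common library size (fitted dispersion 1.39; median absolute difference from the deposited values 1.67e-04). No label states this step. It was inverted to recover reads, which were used for shares, bounds and detection, and 108 rows held values but no read. Replicates differed by more than sampling noise (chi-square per degree of freedom 79 to 478).

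In R 4.3.3, limma 3.58.1 was fitted to the deposited log2 values with a group term and a trend of variance on level. The fit took the 181 miRNAs that reached 10 adjusted counts in 3 or more libraries, with Benjamini-Hochberg adjustment at 0.05. Tests are two-sided, and a log2 difference understates the change of low miRNAs. Single shares were compared by exact permutation tests. Both scripts were run on simulated data. The simulation for limma had less spread than the fitted dispersion and left out the quantile adjustment, so it does not measure the error of the calls here. Sequences (RefSeq, GRCm38.p6) were aligned to GENCODE vM21 small RNAs with edlib 1.3.9.post1. The members, the gene lists and the tests were chosen with earlier results of these data known. Members named are the 12 most abundant, all tested members, those at the edge of the level, those without reads in a group, and arm pairs. The 19 alternatives concern scaling, filter, value added, variance trend, replicate block, base composition and each library left out; the comparison with the median difference and the thinning to reads other than miR-122 were added after seeing the data. The genome position of miR-5106 is not reported here.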

Additional observations from a re-analysis of the deposited data

How the results depend on the processing

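Over the 30 tested members and 19 alternatives, 454 of 570 outcomes kept direction and side of the threshold, 50 no longer passed, 43 newly passed and 23 changed sign. miR-6239, miR-7075-3p, miR-1291, miR-1839-5p, miR-3066-5p, miR-3068-5p, miR-6240 and miR-12198-3p kept their calls throughout, which says nothing of stability for miR-7075-3p, miR-3066-5p, miR-3068-5p and miR-12198-3p, as the filter chose them through the group where they are high. The counts that moved by over 1.5 times were as follows, against 76 higher and 26 lower of all miRNAs and 11 higher and 4 lower members. All miRNAs lower numbered 8 on library totals, 44 on totals without miR-122, 40 when centred on the median miRNA, 60 with no filter and 59 relative to the median difference, where 48 were higher. Members higher were 6 on totals without miR-122, 7 when centred, 17 with the filter at 5 in 2 libraries and 6 relative to the median. Members lower were 2 with the trend on base composition (GC) removed, 2 on library totals, 8 on totals without miR-122, 9 when centred, 8 with the filter at 5 in 2 libraries and 14 relative to the median. With 1 library left out, members higher ranged from 7 (without palmitic acid 2 or 3) to 12 and members lower from 3 to 8 (without control 2). For comparison, all miRNAs higher were 95 on library totals, 57 on totals without miR-122 and 65 when centred. With the GC trend removed 80 of all miRNAs were higher and 26 lower. With the filter at 5 in 2 libraries 106 of 263 were higher and 34 lower. With 1 library left out, all miRNAs higher ranged from 63 to 85 and lower from 20 to 32. The causes of these moves were not tested, except that the filter changes how many miRNAs enter.

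Same-numbered libraries correlated at r = 0.209, 0.151 and 0.038 in their deviations, and differently numbered ones at -0.183 to 0.062. This does not settle whether libraries were paired. The labels state no design, so the numbers were not taken to pair the libraries. With a replicate block, 83 miRNAs were higher and 28 lower, and 12 and 6 members. With the block and GC trend removed together, 84 miRNAs were higher and 26 lower, and 11 and 3 members.

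Signs changed as follows. With the GC trend removed, with or without the block, miR-1981-5p became 0.98, miR-2137 1.94, miR-3473b 0.65, miR-5126 2.23, miR-5130 1.93 and miR-6538 4.02. On library totals miR-1981-5p became 0.91, miR-5106 0.14, miR-6538 0.31 and miR-12182-3p 0.062. Without control 1 miR-1981-5p became 0.37 and miR-5106 1.58; without control 3 miR-1981-5p became 0.29 and miR-6538 0.82; without palmitic acid 1 miR-1981-5p became 0.004; without palmitic acid 2 miR-5106 became 2.60. With 1 library left out, miR-1981-5p ranged from -0.83 to 0.37, miR-5106 from -2.43 to 2.60 and miR-6538 from -1.61 to 0.82. Relative to the median difference miR-6238 became -0.28. The mean share of the members went from 5.83% in controls and 1.60% with palmitic acid to 24% and 1.85% of reads other than miR-122, and to 1.13% and 1.24% without miR-6239. Detected members averaged 39.3 in controls and 51 with palmitic acid, 32.8 and 44.2 thinned to the shallowest library, 25 and 47 at 5 reads, and 36.4 and 35.0 thinned to the fewest reads without miR-122. Control depth limits what can be said of members with few reads.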
